A study of Mus musculus with 6 samples.

Results

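Kinesins are motor proteins that walk along microtubules, and 36 of the 25407 rows of the deposited gene table were taken as kinesins here. The cells were CT26.WT, a line grown from a colon carcinoma of the mouse. The kinesins were taken by name (a symbol of the Kif family, or Kifc1, Kifc2 or Kifc3) and by a transcript type that includes protein coding. Cenpe and Kifc5b are kinesins as well, but their names fall outside this rule. By their known main role, 12 were placed with mitosis and cytokinesis, 16 with the transport of cargo or of ciliary components outside mitosis, and 8 in neither class. After the filter on low counts 31 could be tested, which were 12 mitotic, 13 transport and 6 other kinesins. Kif1a, Kif5c and Kif17 of the transport class and Kif26b and Kif27 of the others were too low, with at most 25 estimated counts in any library. Kif21b and Kif16bos matched by name but carry no protein-coding type in the table, and 5 other known kinesin symbols were not analysed here.

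Each kinesin couples ATP hydrolysis in its motor domain to movement along, or shortening of, a microtubule. Mitotic kinesins build the bipolar spindle, move and align chromosomes and organise the midzone at which the cell divides, and their genes are usually transcribed in G2 and M phase. Transport kinesins carry vesicles, organelles, RNA and ciliary cargo, many of them throughout the cell cycle and also in cells that have stopped dividing.

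The study compared 3 libraries of cells treated with Cu2O@AuMn@HA, NaHS and NIR (near-infrared light) with 3 libraries of control cells of the same line. Cu2O@AuMn@HA is the study's nanoplatform and NaHS is a donor of hydrogen sulfide. The sources used here give no doses, no exposure times and no account of what the control cells received. All agents were given together, so their separate effects cannot be told apart. No label says that the libraries of a group came from separate cultures, so p-values measure the spread between these libraries, which may be technical.

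The treated libraries held 62328377 to 70323604 estimated counts, and the control libraries 71409968 to 81821380. A sequenced fragment weighed about 4 estimated counts in this table. The epithelial keratins Krt8 and Krt18 were present, with Krt18 at 152 to 172 FPKM in treated and 58.6 to 69.0 FPKM in control libraries. Krt20 went the other way, at 53.4 to 61.8 FPKM in treated and 87.1 to 93.1 FPKM in control libraries. The other epithelial markers were low: Krt19, Vil1 and Cdx2 were at most at 0.717 FPKM in treated and 0.379 FPKM in control libraries. FPKM is a fragment count scaled by transcript length and by depth. Epcam and Cdh1, which define epithelial cells, were at 0 in every control library and at most at 0.0609 FPKM in treated ones. Of 8 markers of other cell types, Cd3e and Alb were not analysed here, and Ptprc, which marks leukocytes, was at 0 in 5 of 6 libraries. Cd68 was at 54.8 to 64.2 FPKM in treated and 27.4 to 28.1 FPKM in control libraries, and Col1a1 at 14.4 to 16.1 FPKM in treated and 30.2 to 31.7 FPKM in control libraries. Itgam, Pdgfra and Pecam1 were at most at 0.796 FPKM in any library. The part of these markers in the kinesin results was not tested.

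Most mitotic kinesins fell in treated cells, while most transport kinesins did not pass the test in either direction. Of 12 mitotic kinesins tested, 8 were lower and 1 was higher, with a median log2 fold change of -0.86. Among all 16212 rows tested, 46.6% changed, 23.5% lower and 23.0% higher, with a median of 0.06. Of 13 transport kinesins 1 was lower and 2 were higher, with a median of -0.05, and of 6 other kinesins 2 were lower and the rest did not pass, with a median of -0.23. All of these are calls of edgeR's quasi-likelihood test with an adjusted p under 0.05, and no test was made between the classes. Kif2a, which also works at spindle poles, was counted with the other kinesins and did not pass. The libraries come from bulk RNA, so fewer cells in G2 and M phase and less of these RNAs per cell cannot be told apart.

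Summed over the class, the mitotic kinesins reached 85.9, 84.9 and 78.9 FPKM in the treated libraries, against 195, 204 and 203 FPKM in the control libraries. The transport kinesins summed to 75.6, 71.0 and 70.2 FPKM in treated and 85.2, 88.6 and 90.0 FPKM in control libraries. Neither sum overlapped between the groups, and the gap was wider for the mitotic class. Mitotic kinesins made up 51.3% ± 0.699 of the FPKM of these 36 kinesins in treated cells and 67.7% ± 0.311 in control cells (SD, n = 3 each). Transport kinesins made up 44.6% ± 0.881 in treated cells and 29.6% ± 0.198 in control cells. The sums were carried by a few abundant genes: Kif20a, Kifc1, Kif22, Kif18b and Kif2c in the mitotic class and Kif1c in the transport class. Kif1c alone averaged 31.2 FPKM in treated and 48.4 FPKM in control cells, and the transport sum 72.3 and 87.9 FPKM. The gap of the transport sum was thus no wider than that of Kif1c, and it does not show a fall of the class.

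**Figure D1:**
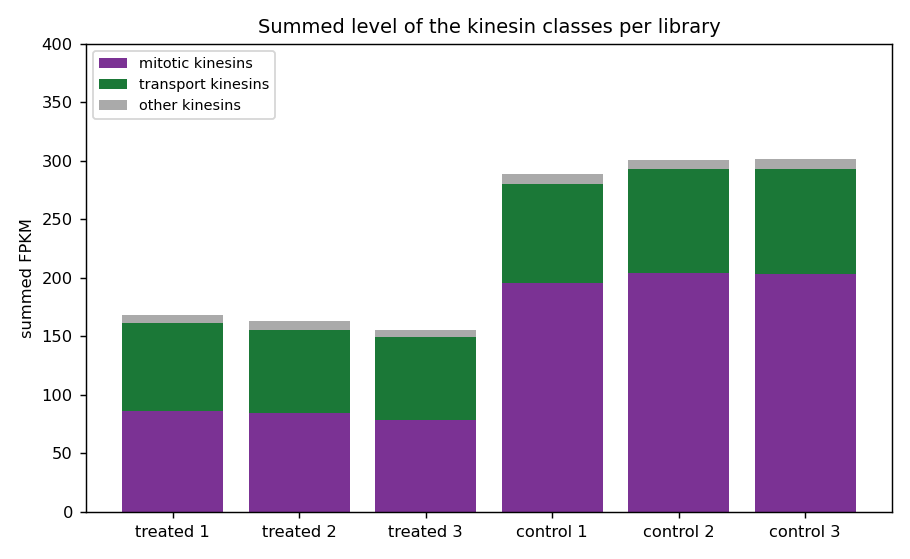
Summed FPKM (vertical axis) of the mitotic, transport and other kinesins in each of the 3 treated and 3 control libraries. The whole bars average 162 FPKM in treated and 297 FPKM in control libraries, and most of the gap lies in the mitotic segment.

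Most promoters of the mitotic class share a sequence feature, and they are shown before the single genes. The class was set by known role, and the motif is known from genes of that role, so the counts below only describe the class. The cell cycle genes homology region (CHR), TTTGAA, is known as the element through which the DREAM and MuvB complexes hold back G2 and M phase genes and later switch them on, often beside CCAAT boxes bound by NF-Y. Both motifs were searched on both strands in RefSeq promoter windows of the build GRCm38.p6, 250 bases before to 50 bases after the annotated start, and no CHR and CCAAT match overlapped in a kinesin window. Of the 36 kinesins, 29 had a window, among them 11 mitotic and 11 transport kinesins but not Kif20a. The CHR letters were in 10 of 11 mitotic kinesin promoters (90.9%), in 1 of 11 transport kinesin promoters (9.09%) and in 20.2% of 27025 genes with a window. CCAAT was in 7 of 11 mitotic and 3 of 11 transport promoters, against 41.1% of all genes. Both motifs together were in 7 mitotic promoters and 0 transport promoters, against 8.97% of all genes.

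The 10 mitotic matches are printed with the bases on either side, because 8 of them lie within 25 bases of the start. Capitals mark the CHR match nearest the start, read along the gene 5′ to 3′. TTCAAA is the same motif on the opposite strand, and positions are those of its leftmost base, with the first transcribed base at 0.
Kif11 (chr19:37376353-37376378, + strand, match at -19): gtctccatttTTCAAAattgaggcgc
Kif15 (chr9:122951052-122951077, + strand, match at -19): gggcgccaaaTTCAAAtctgcggcca
Kifc1 (chr17:33890617-33890642, - strand, match at 1): gaggttgaaaTTCAAAagtggcgggt
Kif18b (chr11:102925106-102925131, - strand, match at 3): gaccggctagTTTGAAcgcgccgcgc
Kif2c (chr4:117178860-117178885, - strand, match at -103): aggctgctctTTCAAAcctgagtaat
Kif22 (chr7:127042422-127042447, - strand, match at -17): gccccggtaaTTCAAAagagagaagc
Kif4 (chrX:100626074-100626099, + strand, match at 19): ctgggatcaaTTTGAAacttggcggt
Kif14 (chr1:136467610-136467635, + strand, match at -228): aggtcctgtcTTTGAAgtctgcagtg
Kif20b (chr19:34922355-34922380, + strand, match at 7): gccgccattgTTTGAAtttgaaaacc
Kif23 (chr9:61946782-61946807, - strand, match at 2): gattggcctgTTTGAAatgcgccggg
The matches of Kif14 and Kif2c stand farther upstream than the others. The kinesins that fell and those that did not pass, such as Kif11 and Kif20b, are both among the genes with a match, so the letters do not sort the mitotic class by its change. Kif18a, the mitotic kinesin that rose, is the one whose window held neither motif.

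The whole windows of Kif22, which fell and has CHR and CCAAT matches, and of Kif18a, which has neither, are printed as differing examples. They do not stand for the class. Kif2c, which fell more than Kif22, has a CHR match but no CCAAT match, and Kif11, which did not pass, has both. Capitals mark CHR matches (TTTGAA or TTCAAA) and CCAAT matches (CCAAT or ATTGG). A match is a description of the letters and says nothing of binding in these cells.
Kif22 (chr7:127042371-127042670, - strand): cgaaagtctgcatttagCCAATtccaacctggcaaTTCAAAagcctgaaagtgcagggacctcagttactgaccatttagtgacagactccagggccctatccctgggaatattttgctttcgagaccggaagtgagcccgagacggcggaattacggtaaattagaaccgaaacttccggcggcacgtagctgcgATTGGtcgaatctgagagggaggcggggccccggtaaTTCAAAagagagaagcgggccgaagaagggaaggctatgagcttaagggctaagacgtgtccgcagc
Kif18a (chr2:109280488-109280787, + strand): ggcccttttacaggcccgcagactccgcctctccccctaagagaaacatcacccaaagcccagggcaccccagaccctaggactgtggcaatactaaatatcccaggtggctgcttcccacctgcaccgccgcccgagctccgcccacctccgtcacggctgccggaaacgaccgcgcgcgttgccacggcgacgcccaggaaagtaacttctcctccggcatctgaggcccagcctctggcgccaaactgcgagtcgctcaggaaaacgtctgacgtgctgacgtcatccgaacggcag

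**Figure D2:**
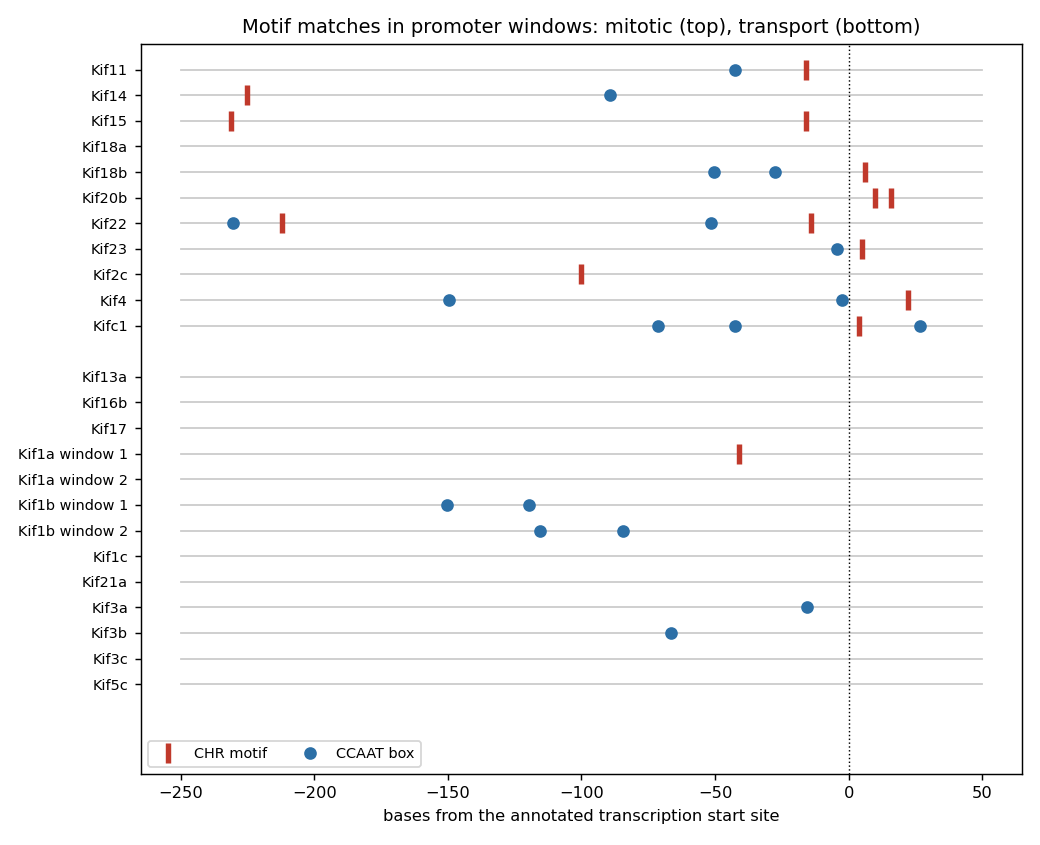
CHR matches (red bars) and CCAAT matches (blue dots), drawn at their centre, in the promoter windows of 11 mitotic (top) and 11 transport kinesins (bottom). The horizontal axis is the distance in bases from the annotated start, and genes with more than 1 window in the table have a line for each. CHR matches cluster near the start of the mitotic genes.

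Spindle assembly and pole focusing depend on Kif11, Kif15 and Kifc1. Kifc1, a minus-end motor that gathers microtubules at the poles and clusters extra centrosomes, was at 27.2, 24.5 and 25.96 FPKM in treated libraries and at 42.3, 48.3 and 47.7 FPKM in control libraries. Every treated value was below every control value, which held for 27.1% of all rows tested. Kifc1 fell by 0.87 ± 0.09 on the log2 scale (SE, n = 3 each, adjusted p = 3.68e-05 in edgeR's quasi-likelihood test with Benjamini-Hochberg adjustment, as for all adjusted p that follow). The table also lists Kifc5b, a near-identical copy, at 10.5, 10.01 and 10.8 FPKM in treated and 14.7, 17.1 and 16.5 FPKM in control libraries, so how reads were divided between the copies is uncertain. Kif11, the motor that pushes the poles apart, was at 0.959, 1.46 and 0.661 FPKM in treated libraries and 1.13, 0.587 and 0.873 FPKM in control libraries. The groups overlap, and the log2 fold change of 0.21 ± 0.29 did not pass (edgeR, adjusted p = 0.582). Kif15, which can take over from Kif11, was at 0.242, 0.215 and 0.113 FPKM in treated libraries and 0.297, 0.286 and 0.285 FPKM in control libraries. Its treated values were all the lower ones, but the log2 fold change of -0.63 ± 0.26 did not pass (edgeR, adjusted p = 0.0749).

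Chromosome movement and microtubule shortening are the work of Kif2c, Kif18a, Kif18b, Kif22 and Kif4. Kif2c (MCAK), a depolymerase that removes faulty attachments at the kinetochore, was at 7.46, 8.24 and 7.01 FPKM in treated and 21.8, 23.3 and 24.4 FPKM in control libraries. It fell by 1.65 ± 0.09 on the log2 scale (edgeR, adjusted p = 1.23e-06), and the groups lie far apart. Kif22, a chromosome-bound motor that pushes chromosome arms from the poles, was at 11.4, 10.1 and 10.8 FPKM in treated libraries, against 28.2, 28.8 and 28.6 FPKM in control libraries. Its fall was 1.44 ± 0.08 on the log2 scale, with little spread in either group (edgeR, adjusted p = 1.23e-06). Kif18b, which shortens the astral microtubules, was at 9.87, 9.98 and 10.7 FPKM in treated and 21.7, 26.8 and 23.8 FPKM in control libraries, and fell by 1.28 ± 0.11 on the log2 scale (edgeR, adjusted p = 1.31e-05). The chromokinesin Kif4, which also works at the midzone with Prc1, was at 1.88, 2.30 and 1.21 FPKM in treated and 3.20, 2.57 and 2.74 FPKM in control libraries. Its decrease was smaller, at -0.70 ± 0.20 on the log2 scale (edgeR, adjusted p = 0.0172), and treated library 3 was the lowest of the 6. Kif4 shares 832 bases with Pdzd11 on the other strand, and the sources used here do not say whether the counting used the strand. Kif22, Kif2a, Kif3c, Kifc3, Kif7, Kif5b, Kif11, Kif21a and Kif27 also overlap genes on the other strand. For Kif11 that gene is the pseudogene Gm46649, at 0.677, 0.934 and 0.874 FPKM in treated and 1.003, 0.704 and 1.33 FPKM in control libraries. A pseudogene on the same strand, Gm8663, shares 946 bases with Kif11.

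Kif18a, a plus-end motor that damps the swings of chromosomes at the metaphase plate, went against its class. It was at 0.575, 0.629 and 0.528 FPKM in treated libraries and at 0.255, 0.169 and 0.269 FPKM in control libraries, with no overlap. It rose by 1.29 ± 0.20 on the log2 scale (edgeR, adjusted p = 0.000616), and 30.4% of all rows tested had every treated value above every control value. These are low levels, 383 to 474 estimated counts in treated and 146 to 202 in control libraries. With a correction for GC content the log2 fold change was 0.65 and still passed (edgeR, adjusted p = 0.00998). Kif18a shares 11 bases at its start with Mettl15 on the other strand, which was at 2.02, 2.599 and 1.73 FPKM in treated and 1.66, 0.975 and 1.34 FPKM in control libraries.

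Midzone and cytokinesis motors are Kif20a, Kif23, Kif14 and Kif20b. Kif20a (MKLP2), which brings the chromosomal passenger complex to the central spindle, was the most abundant kinesin in control cells and had the largest fall of the 31 tested. It was at 22.8, 23.4 and 19.3 FPKM in treated libraries and 70.5, 68.4 and 68.0 FPKM in control libraries, which is -1.70 ± 0.08 as log2 fold change (edgeR, adjusted p = 9.59e-07). The groups are far apart, and Kif20a shares 2327 bases with Cdc23 on the other strand, a gene at 5.203, 5.47 and 4.38 FPKM in treated and 6.78, 6.81 and 6.85 FPKM in control libraries. Kif23 (MKLP1), which forms the centralspindlin complex with Racgap1, was at 2.90, 3.25 and 2.098 FPKM in treated and 4.87, 4.39 and 5.19 FPKM in control libraries. It fell by 0.84 ± 0.14 on the log2 scale (edgeR, adjusted p = 0.000749) without overlap. Kif14, which recruits citron kinase to the midbody, was at 0.275, 0.323 and 0.252 FPKM in treated and 0.806, 0.628 and 0.776 FPKM in control libraries. It fell by 1.41 ± 0.17 on the log2 scale (edgeR, adjusted p = 0.000128). Kif20b, a further cytokinesis motor, was at 0.403, 0.530 and 0.289 FPKM in treated and 0.376, 0.186 and 0.517 FPKM in control libraries. Its groups overlap and its log2 fold change of 0.15 ± 0.35 did not pass (edgeR, adjusted p = 0.753).

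**Figure D3:**
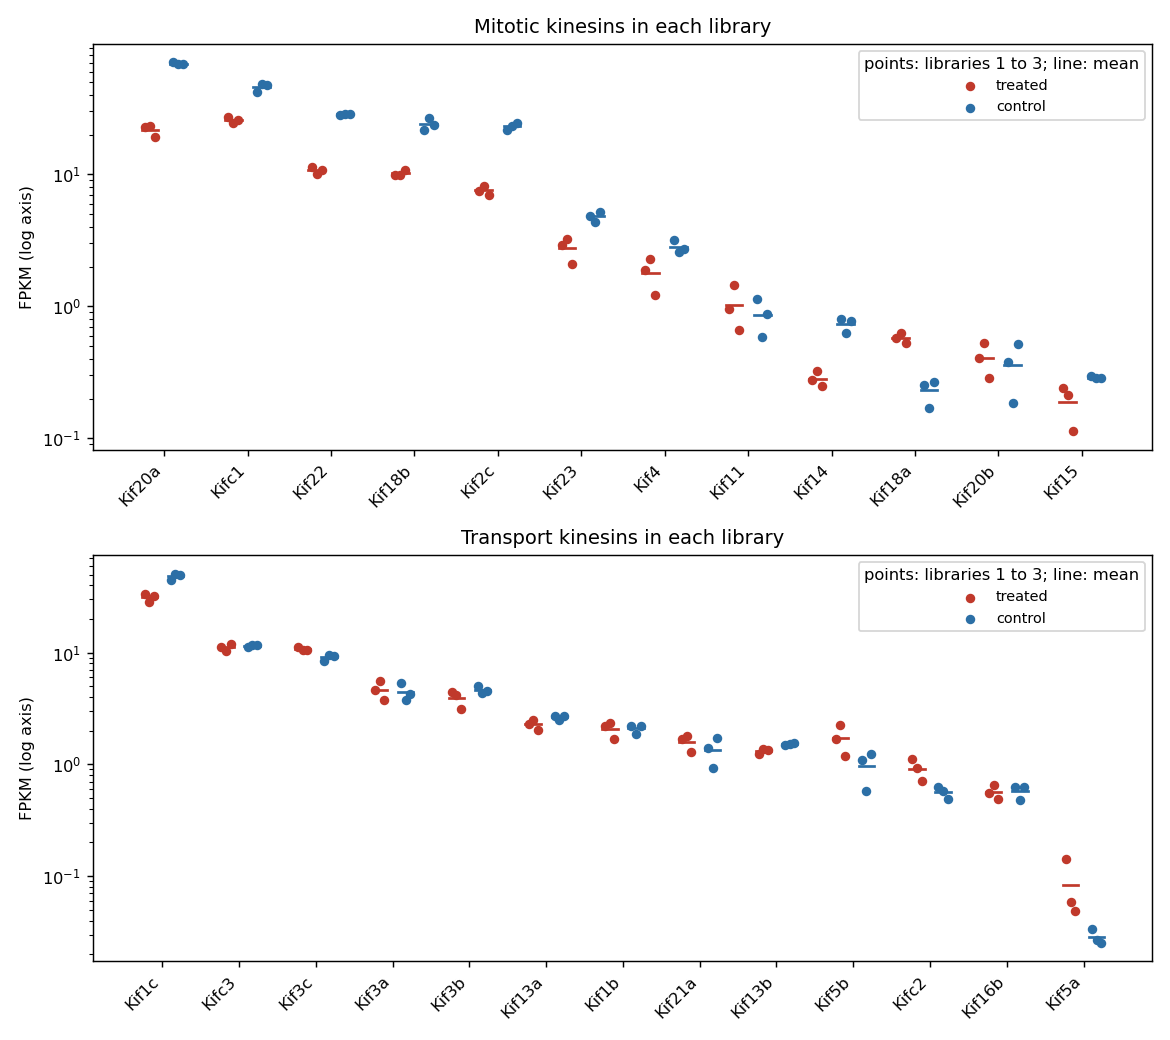
FPKM on a log axis of the 12 mitotic (top) and 13 tested transport kinesins (bottom) in each library, with treated libraries in red to the left of control libraries in blue and a line at each mean. The 8 mitotic kinesins that fell show separate groups, while most transport kinesins overlap.

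Most genes of proteins that work with the mitotic kinesins fell as well. Cenpe, itself a mitotic kinesin that the rule on names did not take, is counted among these genes and fell by 0.92 on the log2 scale. Of 20 such partners tested, 18 were lower and 2 did not pass, against 23.5% lower among all rows tested, with a median log2 fold change of -1.30 against 0.06. Bub1b, a kinase of the spindle checkpoint, averaged 12.1 ± 0.478 FPKM in treated and 32.6 ± 1.12 FPKM in control cells (SD, n = 3 each) and fell by 1.46 on the log2 scale (edgeR, adjusted p = 6.71e-07). Birc5 (survivin) and Incenp are subunits of the chromosomal passenger complex that Kif20a carries. Birc5 averaged 16.6 ± 0.302 FPKM in treated and 40.4 ± 0.840 FPKM in control cells, and Incenp 12.5 ± 0.507 FPKM in treated and 34.2 ± 1.02 FPKM in control cells. Both fell, Birc5 by 1.32 and Incenp by 1.49 on the log2 scale. The 2 partners that did not pass were Nusap1, at 2.62 ± 0.680 FPKM in treated and 1.85 ± 0.277 FPKM in control cells (edgeR, adjusted p = 0.0764), and Hmmr (adjusted p = 0.138). Both encode spindle-associated proteins.

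Among the transport kinesins, Kif1c was the most abundant and the one that fell. Kif1c, a fast motor of the kinesin-3 family that carries vesicles, was at 33.2, 28.4 and 32.1 FPKM in treated and 44.8, 50.9 and 49.3 FPKM in control libraries. The groups do not overlap, and it fell by 0.67 ± 0.10 on the log2 scale (edgeR, adjusted p = 0.000332). Of the other members of that family, Kif13b and Kif13a both lay at -0.25 on the log2 scale and did not pass (edgeR, adjusted p = 0.0782 and 0.0798). Without treated library 2, Kif13a passed at -0.33 (edgeR, adjusted p = 0.0385). Kif1b, a carrier of mitochondria and synaptic vesicle precursors, and Kif16b, a motor of early endosomes, lay at -0.05 and -0.08 without passing.

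The conventional kinesin heavy chains, which pair with kinesin light chains, were scarce. Kif5b, the form known from most tissues, was at 1.69, 2.26 and 1.19 FPKM in treated libraries and 1.10, 0.583 and 1.23 FPKM in control libraries. It passed at 0.79 ± 0.28 on the log2 scale (edgeR, adjusted p = 0.0412), but the groups overlap, since treated library 3 lay below control library 3. Kif5b passed in 8 of 19 alternative settings. It did not pass without treated library 1, treated library 2, control library 1 or control library 2, where the log2 fold change was 0.79, 0.53, 0.85 and 0.52 in that order (edgeR, adjusted p from 0.0664 to 0.19). With the GC correction the log2 fold change was 0.31 (edgeR, adjusted p = 0.219). The neuronal form Kif5a was at 0.142, 0.0581 and 0.0485 FPKM in treated and 0.0333, 0.0269 and 0.0254 FPKM in control libraries. Its treated values are the higher ones, at 15 to 68 estimated counts over all libraries, but its log2 fold change of 1.42 ± 0.56 did not pass (edgeR, adjusted p = 0.0619).

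Heterotrimeric kinesin-2 is formed by Kif3a with Kif3b or Kif3c and the adaptor Kifap3. Kif3c was at 11.2, 10.5 and 10.5 FPKM in treated and 8.45, 9.49 and 9.41 FPKM in control libraries. All treated values were above the control values by a small margin, and the log2 fold change of 0.20 ± 0.08 did not pass (edgeR, adjusted p = 0.0704). With the GC correction it was 0.40 and passed (edgeR, adjusted p = 0.000557). Kif3a was at 4.59, 5.61 and 3.74 FPKM in treated and 5.38, 3.79 and 4.27 FPKM in control libraries, which overlap (log2 fold change 0.02, edgeR, adjusted p = 0.946). Kif3b lay at -0.28 (edgeR, adjusted p = 0.0915).

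Of the minus-end motors outside mitosis, Kifc2 rose and Kifc3 did not pass. Kifc2, known from dendrites of neurons, was at 1.12, 0.926 and 0.711 FPKM in treated and 0.624, 0.572 and 0.486 FPKM in control libraries. The lowest treated value stands above the highest control value, and it rose by 0.66 ± 0.22 on the log2 scale (edgeR, adjusted p = 0.0292). It passed in 12 of 17 alternative settings, but not without treated library 1, treated library 2, control library 2 or control library 3, where the log2 fold change was 0.50, 0.64, 0.68 and 0.55 in that order (edgeR, adjusted p from 0.0574 to 0.142). Kifc2 overlaps Zftraf1 and Tmem276 on the other strand. Kifc3, a motor of epithelial cell junctions, was at 11.3, 10.2 and 11.9 FPKM in treated and 11.3, 11.6 and 11.8 FPKM in control libraries, at -0.09 ± 0.09 on the log2 scale (edgeR, adjusted p = 0.445). Kif21a, which slows microtubule growth, lay at 0.21 and did not pass.

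Of the kinesins in neither class, Kif7 and Kif24 fell, and both are known from the primary cilium. Kif7, which organises the ciliary tip in Hedgehog signalling, was at 2.79, 2.39 and 2.18 FPKM in treated and 3.96, 3.73 and 3.92 FPKM in control libraries. It fell by 0.70 ± 0.12 on the log2 scale (edgeR, adjusted p = 0.00111). Kif24, a depolymerase of the mother centriole that restrains cilium formation in cycling cells, was at 0.277, 0.281 and 0.313 FPKM in treated and 0.601, 0.499 and 0.633 FPKM in control libraries, and fell by 1.01 ± 0.18 on the log2 scale (edgeR, adjusted p = 0.0014). Neither gene's groups overlapped. Kif2a, a relative of Kif2c that works at spindle poles and in axons, was at 3.41, 3.65 and 2.97 FPKM in treated and 2.69, 2.69 and 2.99 FPKM in control libraries. Its log2 fold change of 0.23 ± 0.11 did not pass (edgeR, adjusted p = 0.116), and with the GC correction its sign turned, at -0.42 (edgeR, adjusted p = 0.0211). With the transcript length correction Kif2a passed in the other direction, at 0.29 (edgeR, adjusted p = 0.0313). Its direction thus depends on the correction. Kif9, Kif19a and Kif26a had log2 fold changes of -0.26, -0.21 and -0.05 and did not pass.

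**Figure D4:**
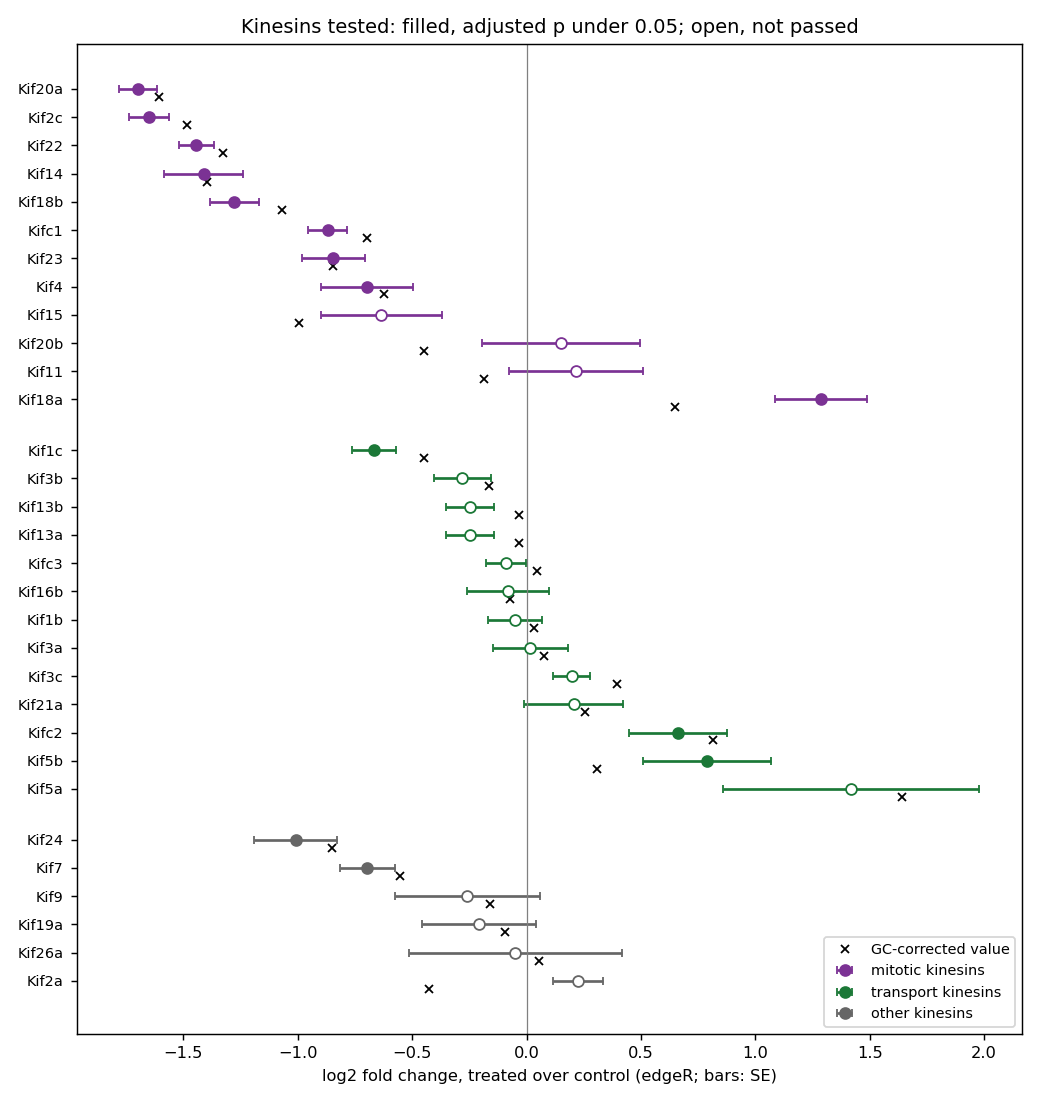
Log2 fold change, treated over control, of the 31 kinesins tested, ordered within mitotic, transport and other kinesins, with bars for the SE. Filled circles passed the test, open circles did not, and crosses give the value with the GC correction. Kif20a at -1.70 and Kif18a at 1.29 are the ends of the mitotic class.

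In the main fit, genes of the proteins that link transport kinesins to cargo were called about as often as any others. Of 20 cargo adaptors tested, 5 (25%) were higher and 6 (30%) were lower, near the 23.0% and 23.5% of all rows tested. Their median log2 fold change was 0.16, against 0.06 over all rows tested. Among those that rose were the light chains Klc3 and Klc4 and the scaffold Mapk8ip3 (JIP3), by 0.61, 0.41 and 0.42 on the log2 scale. Klc3 averaged 20.7 ± 1.94 FPKM in treated and 13.2 ± 0.603 FPKM in control cells. Trak1 and Rhot2, which hold mitochondria on the motor, fell by 0.63 and 0.45, and Madd, which binds the kinesin-3 motors Kif1a and Kif1b, fell by 0.55. Arl8a, a small GTPase that recruits kinesins to lysosomes, averaged 43.6 ± 3.09 FPKM in treated and 35.0 ± 3.95 FPKM in control cells and did not pass (edgeR, adjusted p = 0.0570). It passed at 0.50 with the GC correction and at 0.33 with the length correction (edgeR, adjusted p = 0.000639 and 0.0203).

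Dynein and its cofactor dynactin, which move cargo toward the minus end against most kinesins, were likewise near the share over all rows. Of 30 tested, 9 were lower and 5 were higher, or 46.7% called, against 46.6% of all rows tested. Their median log2 fold change was -0.11, against 0.06. Nde1, a dynein regulator that acts in mitosis, fell by 1.12, and the dynactin subunits Dctn5 and Actr1a fell by 0.95 and 0.93. The dynein light chain Dynlt3 averaged 17.1 ± 5.15 FPKM in treated and 3.46 ± 0.887 FPKM in control cells and rose by 2.27 ± 0.22 on the log2 scale (edgeR, adjusted p = 3.15e-05). Actr10 and Ndel1 rose by 0.51 and 0.44. With the GC correction Actr10 was at 0.14 and did not pass (edgeR, adjusted p = 0.203). Dynlt3 and Ndel1 still passed in that fit, at 1.63 and 0.59 (edgeR, adjusted p = 4.24e-06 and 0.00185). Dctn3, the most abundant member that did not pass, averaged 97.0 ± 7.70 FPKM in treated and 87.1 ± 1.31 FPKM in control cells (edgeR, adjusted p = 0.278). The GC correction put Dctn3 at 0.33, where it passed (edgeR, adjusted p = 0.00084).

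GC content of the transcripts moved with the fold changes, and the mitotic kinesins that fell stood apart in it from those that did not. Across 15760 rows tested with a matched transcript, Spearman's rho between log2 fold change and GC content was -0.27, given as a description since genes are not independent. The 8 mitotic kinesins that fell have transcripts of 46.3% to 57.0% GC, while Kif15, Kif11, Kif20b and Kif18a lie between 38.2% and 42.7%. In the rows from 38% to 42% GC, where Kif18a and Kif20b lie, 6.09% were lower and 45.4% were higher, with a median log2 fold change of 0.64. From 42% to 46% GC, where Kif11 and Kif15 lie, 12.7% were lower and 29.8% higher, with a median of 0.28. The 8 that fell lie between 46% and 58% GC. In steps of 4 points over that range, 24.6% to 33.4% of rows were lower and 16.1% to 21.1% higher. The 4 mitotic kinesins of low GC were scarce, at means of 0.190 to 1.03 FPKM in treated and 0.231 to 0.865 FPKM in control cells, and so was Kif14 at 46.4% GC. Deviation from the mean of all libraries leaned on GC most in treated library 2 (rho -0.44) and control library 2 (rho 0.37).

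With a correction of each library for its GC trend, 9 mitotic kinesins were lower and 1 was higher, with a median log2 fold change of -0.92. Kif15 passed at -0.996 (edgeR, adjusted p = 0.00642), and Kif11 and Kif20b turned to -0.18 and -0.45 without passing. Of the transport kinesins 3 were higher (Kifc2, Kif3c and Kif5a) and 1 was lower, with a median of 0.05, and of the other kinesins 3 were lower (Kif7, Kif24 and Kif2a). In that fit 49.7% of 15760 rows changed, 23.5% lower and 26.2% higher. Kif1c kept its direction at -0.45 (edgeR, adjusted p = 0.000225). Of the mitotic partners 18 were lower in that fit too. Without both libraries numbered 2, and without the correction, 8 mitotic kinesins were lower and 1 was higher.

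**Figure D5:**
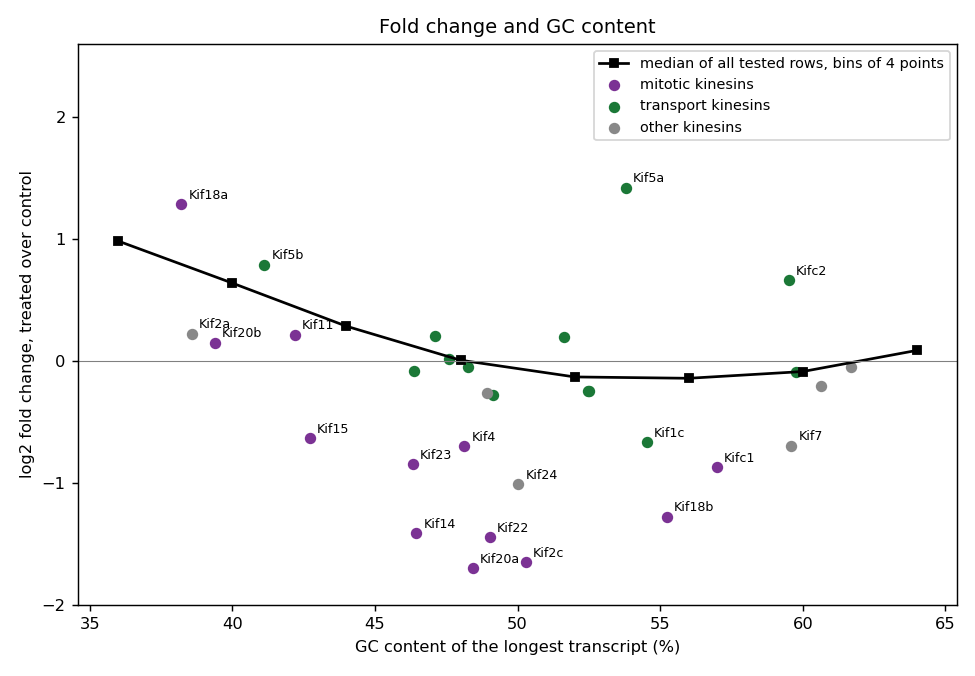
Log2 fold change, treated over control (vertical axis), of the tested kinesins against the GC content in percent of their longest transcript, coloured by class, with the median of all tested rows by GC content. The mitotic kinesins that fell lie at 46.3% GC and above, and Kif18a is at 38.2%.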

How the data were processed

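RNA of 6 CT26.WT libraries, 3 treated and 3 control, was analysed. Titles gave groups and library numbers. The libraries were stranded by dUTP and read from both ends after poly(A) selection, per the labels' protocols. The authors deposited FPKM beside counts, per the file headers. The deposited counts are estimated counts in whole numbers. The value 4 was seen 4054 times and its neighbours 2539.5 times on average, so a fragment weighed about 4. The submitters' processing notes list HISAT2 2.2.1, StringTie 2.1.6 and cutadapt 1.9, with edgeR and DESeq2. The sources used here give neither the build of the files nor the use of the strand, so no coordinate of the files is printed.

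The deposited estimated counts were tested by the quasi-likelihood method of edgeR 4.0.16 in R 4.3.3, with TMM scaling, edgeR's filter on low counts, 2-sided, Benjamini-Hochberg adjustment over 16212 rows and a threshold of 0.05. An SE is the size of the log2 fold change divided by the root of F. The code was tested on simulated data. Without a GC trend it recovered 77 of 100 changes of 2-fold, and 9 unchanged rows passed. With a simulated GC trend of -0.06 on the log2 scale per percent, 3713 unchanged rows passed uncorrected and 14 with the GC correction. Under that trend 85 of 100 changes of 2-fold were recovered uncorrected and 69 with the GC correction. The simulated trend was the same in each treated library. In the data, rho with GC content was -0.21, -0.44 and 0.01 in treated libraries 1, 2 and 3. The main fit has no GC correction. FPKM served for levels and for limma 3.58.1 on log2(FPKM + 1). DESeq2 1.42.0 was an alternative. GC content and length come from the longest GENCODE M21 transcript, matched for 97.2% of rows tested, and were corrected with a loess curve per library (span 0.4). Promoters are from RefSeq (GRCm38.p6), matched by symbol, and a gene counts as having a motif if any of its windows does.

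The kinesins, their classes, the motifs and the other lists were chosen with earlier results of these data known. Values are given per library for every mitotic kinesin, for other kinesins that passed and for the most abundant of each class. In the other lists the up to 3 smallest p in each direction and the most abundant member that did not pass are named. Other kinesins that did not pass, Cenpe, Hmmr and Klc1 were picked after their values were seen. Depth limits scarce genes such as Kif18a and Kif5a. Genes that overlap others or have copies are uncertain.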

Additional observations from a re-analysis of the deposited data

How the results depend on the processing

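Each result was recomputed under 20 alternatives: other scalings, DESeq2, limma on FPKM, other filters, GC and length corrections, counts divided by 4, protein-coding rows, a replicate block, each library left out and both libraries numbered 2 left out. Of the fold changes of single kinesins over these alternatives, 508 kept their direction and side of the threshold, 16 lost the call, 15 gained it and 32 changed sign. The 32 are of 8 kinesins that had not passed, and 1 of the values passed, Kif2a at -0.42 with the GC correction. With that correction Kif11 was at -0.18, Kif20b at -0.45, Kif26a at 0.055, Kifc3 at 0.046 and Kif1b at 0.033. With the correction and the replicate block, Kif11 was at -0.19, Kif20b at -0.38, Kif2a at -0.42, Kif26a at 0.054, Kifc3 at 0.046 and Kif1b at 0.029. Without both libraries numbered 2, Kif11 was at -0.32, Kif20b at -0.38, Kifc3 at 0.0034, Kif21a at -0.085 and Kif3a at -0.22. Kif26a was at 0.027 with library totals only and at 0.0076 with the length correction, and Kif1b was at 0.026 with either. With limma on rows of a mean FPKM of at least 5, 4363 of all rows changed and 5 mitotic kinesins were lower, against 7548 and 8, since fewer rows were tested. In the 3 limma fits 0 mitotic kinesins were higher, because Kif18a is below their minimum level. Transport kinesins higher numbered 1 with limma (Kif3c), with every row above 0 tested and without both libraries numbered 2, against 2, and transport kinesins lower numbered 2 without both libraries numbered 2, against 1. The cause was not tested.

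Leaving out 1 library at a time gave 6073 to 7264 changed rows, 8 to 8 mitotic kinesins lower, 1 to 1 higher, 1 to 2 transport kinesins lower and 0 to 2 higher. The 2 lower ones were found without treated library 2. That second call was Kif13a, and the calls lost were those of Kifc2 and Kif5b: 0 transport kinesins were higher without treated library 1, treated library 2 or control library 2, and 1 without control library 1 or control library 3. Single libraries also turned the sign of 6 kinesins that did not pass, whose log2 fold changes ran from -0.14 to 0.43 for Kif11, -0.17 to 0.47 for Kif20b, -0.22 to 0.11 for Kif26a, -0.0067 to 0.39 for Kif21a, -0.16 to 0.063 for Kif1b and -0.15 to 0.13 for Kif3a. The groups share library numbers, but nothing in the labels says that a number marks a shared culture. Deviations from the group means correlated at 0.04, -0.10 and 0.01 between libraries with the same number, so they were not treated as pairs. With the number as a replicate block, 6275 rows changed, 8 mitotic kinesins were lower, 1 was higher, and 1 transport kinesin was lower and 1 higher. Block and GC correction together gave 9 mitotic kinesins lower.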

Other observations

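The levels of motor and light chain of conventional kinesin stood far apart in these libraries. The light chain Klc1 was at 45.001 ± 1.9002 FPKM in treated and 53.2 ± 1.88 FPKM in control cells (SD, n = 3 each), while its most abundant heavy chain Kif5b was at 1.71 ± 0.532 FPKM in treated and 0.971 ± 0.343 FPKM in control cells. The GC content of their longest transcripts is 56.0% for Klc1 and 41.1% for Kif5b. Whether GC content has a part in the levels of the 2 genes was not tested.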
